A study of Mus musculus with 17 samples.

Results

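The transcripts of 6 scavenger receptor genes, Msr1, Marco, Colec12, Scarb1, Cd36 and Cxcl16, were followed in sorted mouse microglia. The genes were taken from a list of names, chosen with earlier results of these data known, and are 6 of the 41388 Ensembl gene IDs in the count files. All 6 were among the 13060 genes that reached 1 CPM (the usual library-scaled count) in at least 3 libraries and were tested, although Marco did so only through its neonatal CD11c+ libraries.

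RNA sequencing libraries were made from microglia of C57BL/6 mice sorted as CD45dim CD11b+ cells, and CD11c, an integrin subunit, divided them into CD11c+ and CD11c- subsets. There were 4 libraries of neonatal CD11c- microglia and 4 of neonatal CD11c+ microglia, from untreated pups of the first postnatal week. Another 3 libraries held CD11c- and 3 held CD11c+ microglia of adult mice with symptomatic experimental autoimmune encephalomyelitis (EAE), an inflammation of the central nervous system induced with a peptide of myelin oligodendrocyte glycoprotein in Freund's adjuvant and pertussis toxin. The remaining 3 libraries came from unmanipulated adult mice, and their labels call them total microglia in the title but CD11C negative in another field; they are called adult here. Per the study's methods each library was a pool of mice, adult and EAE mice were females and pups were of mixed sex, so that age and sex cannot be told apart between neonatal and other groups. The study describes these pools as coming from several EAE immunizations and several cell sorts, without saying which library came from which, and p-values measure the spread between pools.

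Scavenger receptors are cell surface proteins of macrophages and other cells that bind modified lipoproteins, bacterial polyanions, apoptotic cells and other negatively charged or lipid ligands and take them up. Class A receptors (Msr1, Marco, Colec12) are trimers with a collagen-like stalk, while class B receptors (Scarb1, Cd36) cross the membrane at both ends and carry lipid. CXCL16 is a transmembrane chemokine that also binds oxidized lipoprotein and, once shed, attracts cells bearing CXCR6. In microglia these proteins are known for the clearance of debris, lipid and aggregated protein.

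Each library held 5115489 to 10436066 counts, so that 3 counts, taken as the lowest level that can be told from none, equalled 0.288 to 0.572 CPM. The 5 microglial markers Cx3cr1, P2ry12, Tmem119, Csf1r and Aif1 summed to 25700 to 28800 CPM in adult libraries, 18330 to 23460 (CD11c-) and 15310 to 17600 CPM (CD11c+) in neonates, and 18230 to 20270 (CD11c-) and 14090 to 15650 CPM (CD11c+) in EAE. The adult libraries thus lay above all others. Against adult microglia 3 of the 5 markers fell in neonatal CD11c+ microglia (15.3% of all genes tested), and in EAE CD11c+ microglia 4 fell and Aif1 rose (11.1% and 15.1%). In neonatal CD11c- microglia 2 of the 5 fell, Cx3cr1 and Tmem119 (12.1% of all genes tested). In EAE CD11c- microglia 2 fell, Cx3cr1 and P2ry12 (4.72%). Msr1, Cd36 and Colec12 all rose in both CD11c+ groups. In the CD11c- groups Msr1 and Colec12 rose in neonates and Cd36 did not pass, while Msr1 and Cd36 rose in EAE and Colec12 did not. The part of the lower marker levels in these results was not tested. Libraries 17 (neonatal CD11c-), 16 (neonatal CD11c+) and 1 (EAE CD11c+) stood apart from the rest of their groups, with median correlations of 0.962, 0.978 and 0.966 to them. Libraries 17 and 1 also had the highest shares of mitochondrial counts in their groups, 5.103% and 2.23%. For Msr1, Marco, Colec12, Scarb1, Cd36 and Cxcl16, results that change without these 3 libraries are given with both values. Results for other single genes and for the marker lists were not checked without these libraries.

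Msr1, Cd36 and Cxcl16 were higher in EAE than in adult microglia in both subsets, and Colec12, Msr1 and Cd36 were higher in neonatal CD11c+ than in neonatal CD11c- microglia. Scarb1 was highest in neonatal microglia, and Cxcl16 was lower in neonatal than in adult microglia. A gene was said to rise or fall where edgeR's quasi-likelihood test gave an adjusted p of 0.01 or less over all genes tested, whatever its fold. The plot of CPM by library shows these levels.

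**Figure D1:**
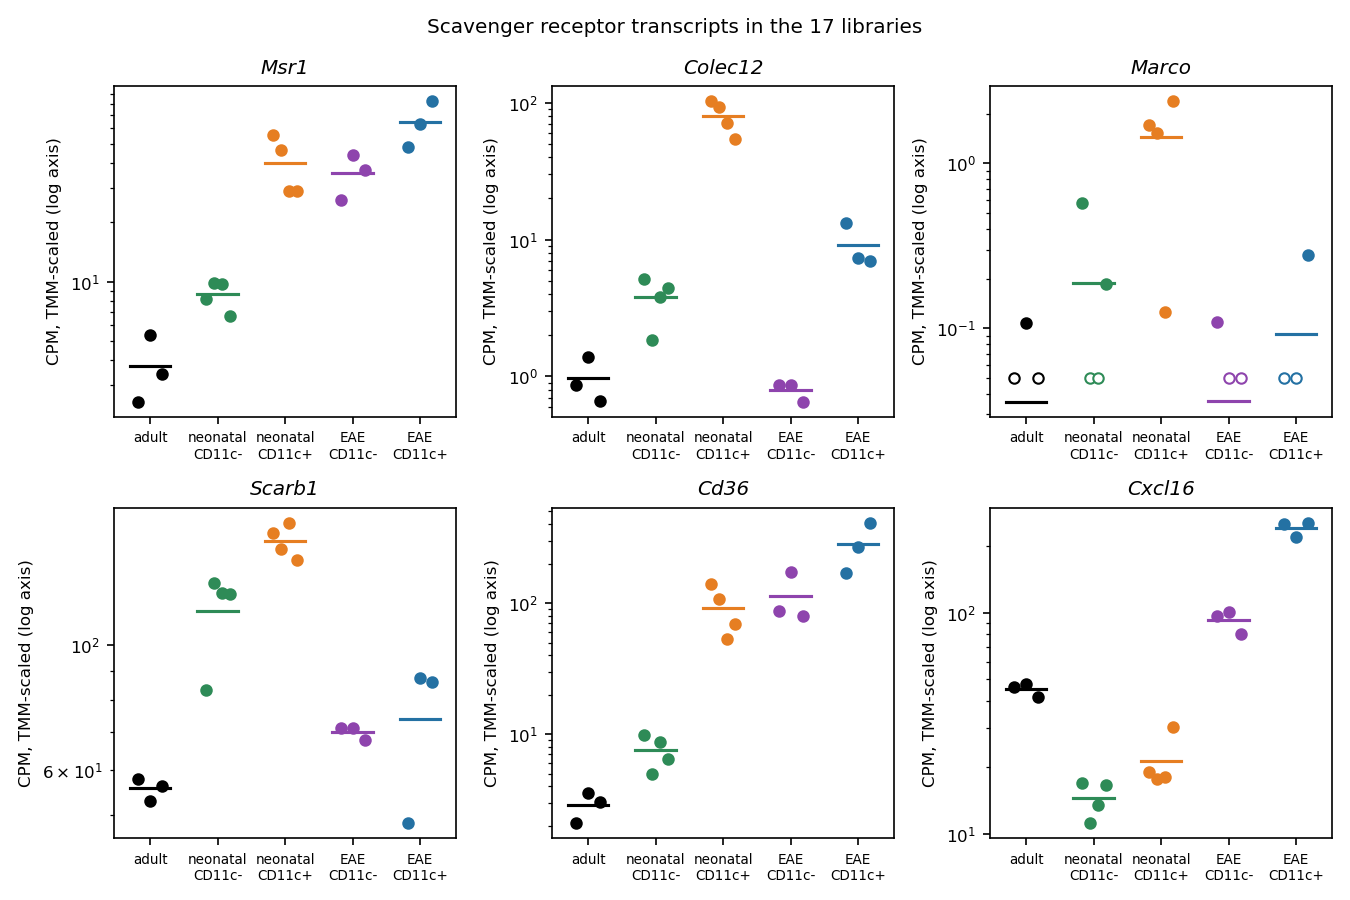
CPM of the 6 scavenger receptor genes (log axis) in the 17 libraries by group, with filled points for libraries, open points at the foot of the axis for libraries with 0 counts, and lines for group means. Cd36 lies between 2.09 and 3.54 CPM in adult and between 170 and 412 CPM in EAE CD11c+ libraries, while Colec12 lies between 54.3 and 103 CPM in neonatal CD11c+ libraries.

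Msr1 (ENSMUSG00000025044, GRCm38 chromosome 8, 39581685 to 39642673, minus strand) encodes the macrophage scavenger receptor SR-A, which binds modified lipoproteins and bacterial products. Its levels were 2.46, 5.37 and 3.41 CPM in the adult libraries 21, 22 and 23 (mean 3.74 ± 1.48, SD, n = 3). Neonatal CD11c- libraries 17 to 20 had 8.19, 9.90, 9.74 and 6.67 CPM (8.63 ± 1.51, n = 4), and neonatal CD11c+ libraries 13 to 16 had 55.2, 46.5, 28.9 and 28.8 CPM (39.9 ± 13.2, n = 4). No neonatal library of either subset overlapped the adult ones, and the subsets did not overlap each other.
In EAE, CD11c- libraries 4, 5 and 6 had 26.1, 43.7 and 36.9 CPM (35.6 ± 8.92, n = 3) and CD11c+ libraries 1, 2 and 3 had 48.3, 62.9 and 82.6 CPM (64.6 ± 17.2, n = 3). Both EAE subsets lay above every adult and neonatal CD11c- library. Against adult microglia, Msr1 rose by a log2 fold change of 3.40 ± 0.32 (SE, adjusted p = 1.2e-07) in neonatal CD11c+ microglia, and in EAE by 3.23 ± 0.33 (7.8e-07) in the CD11c- and 4.09 ± 0.33 (2.5e-08) in the CD11c+ subset. The rise in neonatal CD11c- microglia was smaller, 1.20 ± 0.34 (adjusted p = 0.0097), and did not pass in 8 of the 17 fits that left out a library, with adjusted p of 0.011 to 0.056. Within neonates the CD11c+ subset was higher by 2.20 ± 0.26 (adjusted p = 1.8e-05). The subset difference in EAE was 0.86 ± 0.27 with an adjusted p of 0.06, although the libraries did not overlap, and it passed without libraries 1, 16 and 17 (1.03, adjusted p = 0.0051). From lowest to highest the groups were adult, neonatal CD11c-, EAE CD11c-, neonatal CD11c+ and EAE CD11c+. EAE CD11c- and neonatal CD11c+ libraries overlapped and were not tested against each other, and neonatal CD11c+ was 0.69 ± 0.25 below EAE CD11c+ microglia (adjusted p = 0.038, not passing, and 0.0079 with no filter on low counts).

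Marco (ENSMUSG00000026390, chromosome 1, 120474538 to 120505024, minus strand) encodes a class A receptor of macrophages that line tissue borders and filter blood, and binds bacteria. It was at or near 0 outside the neonatal CD11c+ libraries. The adult libraries held 0, 1 and 0 counts, the neonatal CD11c- libraries 3, 0, 0 and 1, the EAE CD11c- libraries 1, 0 and 0 and the EAE CD11c+ libraries 0, 0 and 2. Neonatal CD11c+ libraries 13 to 16 held 16, 14, 1 and 15 counts, or 1.70, 1.53, 0.13 and 2.39 CPM, so that 3 of these 4 libraries lay above all others and library 15 did not. The summed counts of 46 against 1 in adult libraries gave a depth-scaled ratio of 35.2, with an exact 95% interval of 6.01 to 1420 that covers counting error only. Against neonatal CD11c- microglia the ratio was 9.02 (interval 3.30 to 34.5) and against EAE CD11c+ microglia 14.6 (3.83 to 125). The first of these differences passed (adjusted p = 0.0028) and the others did not (0.028 and 0.011). Marco had to differ to enter the test at all, the call against adult microglia was lost without library 21 or 23 (adjusted p = 0.016 and 0.015), and Marco was no longer tested without library 13, 14 or 16. Without library 15 the difference from neonatal CD11c- microglia passed (adjusted p = 0.0064), and that from EAE CD11c+ microglia passed without library 15 or 17 (0.0019 and 0.0069) and with no filter on low counts (0.004).

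Colec12 (ENSMUSG00000036103, chromosome 18, 9707595 to 9882644, plus strand) encodes a class A receptor with a C-type lectin domain, which binds carbohydrates as well as oxidized lipoprotein. It was scarce in adult libraries, at 0.86, 1.40 and 0.66 CPM (0.970 ± 0.382, n = 3), and in EAE CD11c- libraries, at 0.87, 0.86 and 0.65 CPM (0.794 ± 0.124, n = 3). The 4 neonatal CD11c+ libraries held 103, 92.6, 71.4 and 54.3 CPM (80.4 ± 21.8), and neonatal CD11c- libraries held 5.14, 1.86, 3.83 and 4.45 CPM (3.82 ± 1.42, n = 4). EAE CD11c+ libraries stood between, at 13.1, 7.40 and 6.96 CPM (9.16 ± 3.44, n = 3). Neonatal CD11c+, EAE CD11c+, neonatal CD11c- and the 2 low groups were thus ranked without overlap, while adult and EAE CD11c- microglia overlapped and did not differ detectably (-0.30 ± 0.57, adjusted p = 0.76).
Colec12 rose in the CD11c+ subset of both conditions, by 4.41 ± 0.28 in neonates (adjusted p = 1.0e-08) and by 3.46 ± 0.41 in EAE (2.7e-05). The paper already lists Colec12 among its CD11c+ microglia genes, from these same data. Between the CD11c+ subsets it was higher in neonates by 3.16 ± 0.28 (adjusted p = 5.5e-08). The log2 fold change from adult was 6.32 ± 0.36 for neonatal CD11c+ (adjusted p = 3.5e-10) and 3.17 ± 0.40 for EAE CD11c+ microglia (6.3e-06). The neonatal CD11c- level was above the adult one by 1.91 ± 0.43 (adjusted p = 0.002), a call lost without library 21 or 23 (0.011 and 0.013), and above the EAE CD11c- level by 2.20 ± 0.44 (7.7e-04).

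Scarb1 (ENSMUSG00000037936, chromosome 5, 125277087 to 125341094, minus strand) encodes SR-B1, which moves cholesterol ester between high-density lipoprotein and cells. Adult libraries held 58.0, 52.9 and 56.4 CPM (55.8 ± 2.58, n = 3). Neonatal CD11c- libraries held 83.3, 129, 124 and 123 CPM (115 ± 21.2, n = 4), library 17 being the low value, and neonatal CD11c+ libraries held 158, 148, 165 and 142 CPM (153 ± 10.3, n = 4). Scarb1 thus separated neonatal from adult microglia with no overlap.
The EAE libraries held 71.2, 71.2 and 67.9 CPM in CD11c- (70.1 ± 1.91, n = 3), all above the adult libraries, and 48.3, 87.5 and 85.9 CPM in CD11c+ microglia (73.9 ± 22.2, n = 3), where library 1 was below the adult libraries and the others above. Scarb1 was higher than in adult microglia by 1.04 ± 0.18 in neonatal CD11c- (adjusted p = 0.00014) and 1.46 ± 0.18 in neonatal CD11c+ microglia (2.8e-06). Against EAE it was higher by 0.71 ± 0.17 in the CD11c- subset (adjusted p = 0.0036) and by 1.05 ± 0.17 in the CD11c+ subset (0.00012). The smaller of these, in the CD11c- subset, was lost without library 18, 4, 5 or 6 (adjusted p of 0.011 to 0.018).
The subsets differed by 0.41 ± 0.16 in neonates (adjusted p = 0.081) and by 0.08 ± 0.18 in EAE (0.87), and neither passed; without libraries 1, 16 and 17 the neonatal difference passed (0.32, adjusted p = 0.0023). EAE CD11c- and CD11c+ microglia did not pass against adult (0.33 ± 0.18 and 0.41 ± 0.18, adjusted p = 0.21 and 0.089). The first passed with only the groups compared (0.33, adjusted p = 0.0034). Without libraries 1, 16 and 17, none of which is adult or EAE CD11c-, both did, at 0.33 (adjusted p = 0.0013) and 0.64 (3.1e-06), and without library 1 alone the second did (0.64, adjusted p = 0.0017).

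Cd36 (ENSMUSG00000002944, chromosome 5, 17781690 to 17888801, minus strand) encodes a class B receptor for long-chain fatty acids, oxidized lipoprotein and apoptotic cells. Adult libraries held 2.09, 3.54 and 3.02 CPM (2.88 ± 0.736, n = 3), and neonatal CD11c- libraries 9.91, 4.95, 8.70 and 6.49 CPM (7.51 ± 2.22, n = 4). Neonatal CD11c+ libraries held 140, 107, 53.4 and 68.8 CPM (92.3 ± 38.9, n = 4). The low groups were well below the others, and no library of neonatal CD11c+ or EAE microglia was under 53.4 CPM.
EAE CD11c- libraries held 87.5, 173 and 79.4 CPM (113 ± 52.0, n = 3) and EAE CD11c+ libraries 170, 268 and 412 CPM (283 ± 121, n = 3), so that the subsets overlapped through library 5 of the first and library 1 of the second. Cd36 rose over adult microglia by 6.60 ± 0.49 in EAE CD11c+ (adjusted p = 8.9e-09), 5.28 ± 0.47 in EAE CD11c- (1.9e-07) and 4.99 ± 0.46 in neonatal CD11c+ microglia (1.0e-07). The neonatal CD11c- value of 1.37 ± 0.50 did not pass (adjusted p = 0.038), although the libraries did not overlap. It passed in fits with no filter on low counts (0.0034), with only the groups compared (0.0056) and with the DESeq2 Wald test (0.0026).
The CD11c+ subset of neonates was higher than the CD11c- subset by 3.62 ± 0.37 (adjusted p = 3.5e-06). In EAE the difference was 1.32 ± 0.36 and did not pass (adjusted p = 0.028); it passed without library 5 (1.78, adjusted p = 0.0076), without library 1 (1.58, 0.0079), without libraries 1, 16 and 17 (1.58, 0.0019), with no filter on low counts (1.31, 4.7e-04) and with the DESeq2 Wald test (1.32, 0.0081). Neonatal microglia were below EAE microglia in both subsets, by log2 fold changes of -3.92 ± 0.39 in CD11c- (adjusted p = 3.2e-07) and -1.62 ± 0.33 in CD11c+ cells (8.2e-04). Neonatal CD11c+ and EAE CD11c- libraries overlapped and were not tested against each other.

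Among the 6 genes, 2 have an entry in the RefSeq promoter table. The 250 bases before the listed start are shown for both, because no entry was found for the other members. Of the 6, Cd36 had the highest fold change over adult microglia and Marco had the lowest levels. Capitals mark a match to a motif of macrophage and lipid-handling factors. The windows are GRCm38.p6 chr5:17835897-17836146 for Cd36 and chr1:120505025-120505274 for Marco, both on the minus strand. The Cd36 window lies inside the annotated span of the gene, which has starts farther upstream.
Cd36: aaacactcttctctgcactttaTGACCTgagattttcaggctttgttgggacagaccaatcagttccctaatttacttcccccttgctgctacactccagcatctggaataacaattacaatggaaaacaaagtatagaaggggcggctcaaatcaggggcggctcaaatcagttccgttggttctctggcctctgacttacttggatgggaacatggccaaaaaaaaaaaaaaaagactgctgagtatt
Marco: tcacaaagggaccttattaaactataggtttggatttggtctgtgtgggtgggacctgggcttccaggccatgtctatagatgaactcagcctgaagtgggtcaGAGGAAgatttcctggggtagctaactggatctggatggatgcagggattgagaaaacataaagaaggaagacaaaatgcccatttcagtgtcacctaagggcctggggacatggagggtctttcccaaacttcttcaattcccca
Both strands were searched for GAGGAA (the core bound by PU.1), TGANTCA (AP-1), AGGTCA (the half-site of nuclear receptors) and CACGTG (an E-box). Of 32851 RefSeq promoter windows of this length, 23.3%, 6.75%, 14% and 6.02% held them. The Cd36 window held AGGTCA on the reverse strand, printed as TGACCT from base -228, and the Marco window held GAGGAA from base -146. No other match was found in these windows, and a match is a description of letters, not a binding site.

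Cxcl16 (ENSMUSG00000018920, chromosome 11, 70453983 to 70459984, minus strand) had a pattern of its own. Adult libraries held 46.2, 47.4 and 41.7 CPM (45.1 ± 3.02, n = 3). Neonatal CD11c- libraries held 17.0, 11.1, 13.5 and 16.7 CPM (14.6 ± 2.78, n = 4) and neonatal CD11c+ libraries 19.0, 17.6, 18.0 and 30.4 CPM (21.3 ± 6.14, n = 4), the last being library 16. The neonatal libraries were below the adult libraries without exception.
EAE libraries were above the adult ones, at 96.0, 101 and 79.6 CPM in CD11c- (92.1 ± 11.1, n = 3) and 251, 220 and 255 CPM in CD11c+ microglia (242 ± 19.3, n = 3). Cxcl16 fell from adult by log2 fold changes of -1.64 ± 0.18 in neonatal CD11c- (adjusted p = 1.1e-06) and -1.10 ± 0.17 in neonatal CD11c+ microglia (5.0e-05). It rose in EAE CD11c- by 1.03 ± 0.18 (adjusted p = 3.0e-04) and in EAE CD11c+ microglia by 2.42 ± 0.18 (1.2e-08). The EAE subsets differed by 1.39 ± 0.18 (adjusted p = 5.6e-05), and the neonatal subsets by 0.54 ± 0.17, which did not pass (0.042).
The largest Cxcl16 difference was between the CD11c+ subsets, with neonates below EAE by a log2 fold change of -3.52 ± 0.18 (adjusted p = 3.1e-11), and the CD11c- subsets differed by -2.67 ± 0.18 (2.0e-09). Of the 3021 exonic bases of Cxcl16, 552 (18.3%) are shared with Zmynd15 on the other strand, and no other member shares exonic bases with another gene. Whether the counting used strand is not given in the sources used here, so reads in the shared stretch may not be told apart. Mean Zmynd15 levels were 16.2 CPM in adult microglia, 6.998 (CD11c-) and 9.20 CPM (CD11c+) in neonates, and 26.7 (CD11c-) and 58.1 CPM (CD11c+) in EAE.

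**Figure D2:**
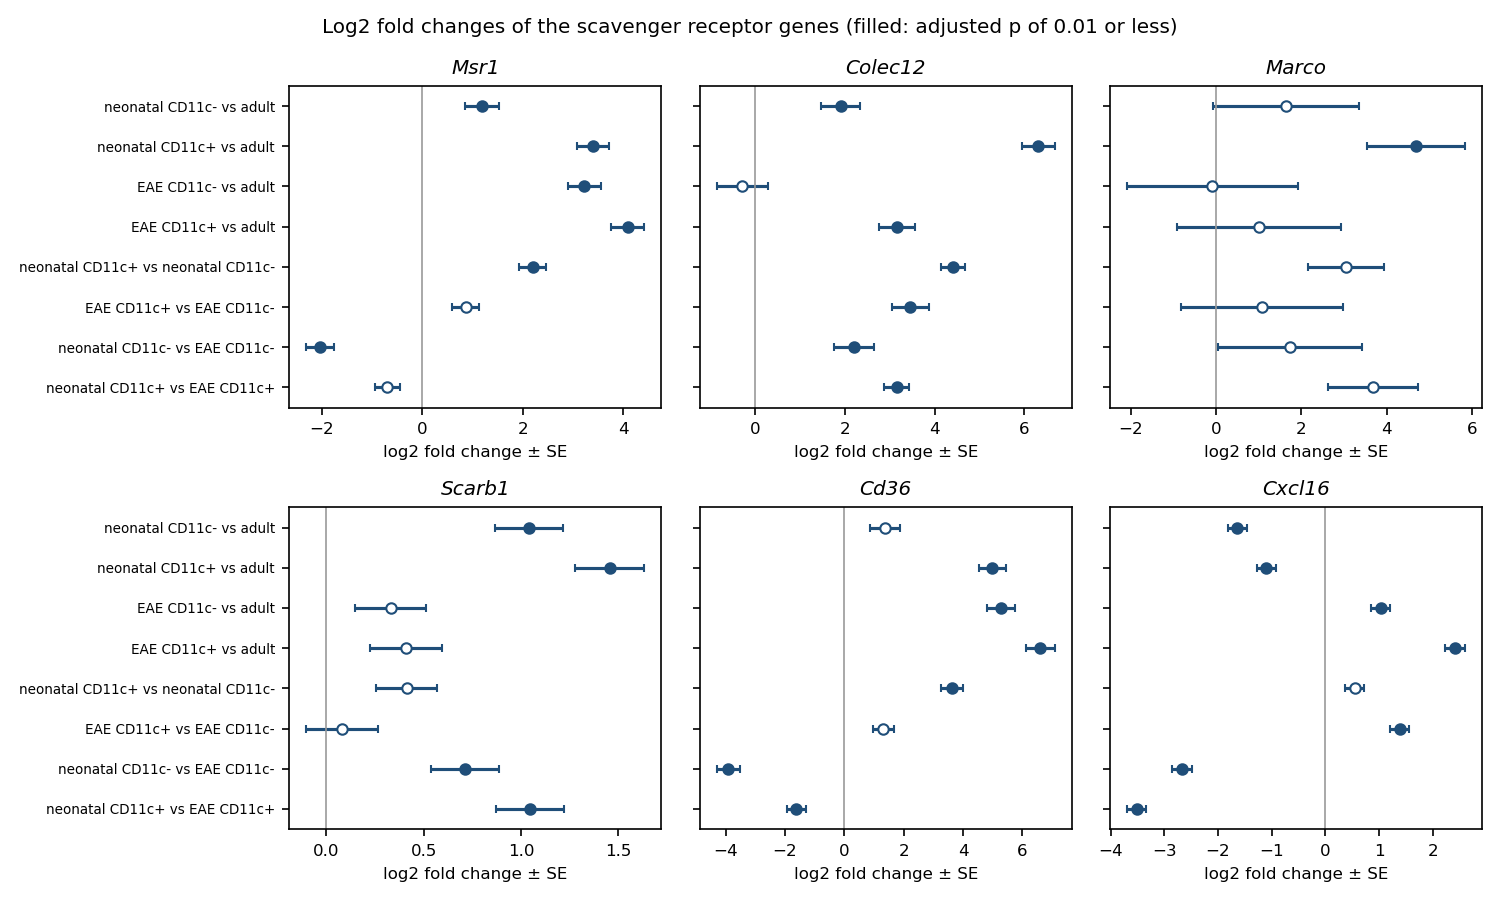
Log2 fold changes (points) with their SE (bars) of the 6 genes in 8 comparisons of groups, the first group over the second, with filled points for an adjusted p of 0.01 or less. Cxcl16 lies left of 0 in the 2 neonatal comparisons with adult microglia and right of 0 in the EAE ones, whereas Msr1 and Cd36 lie right of 0 in all 4.

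Counted by comparison, 3 of the 6 genes rose and 1 fell in neonatal CD11c- against adult microglia, where 13.2% of all genes tested rose and 12.1% fell. In neonatal CD11c+ microglia 5 rose (4 of them apart from Marco) and 1 fell, against 18.0% and 15.3% of all genes. In EAE CD11c- microglia 3 rose and 0 fell, against 11.0% and 4.72%, and for the CD11c+ subset of EAE 4 rose and 0 fell, against 15.1% and 11.1%. The median log2 fold change of the 6 genes from adult was 1.28 in neonatal CD11c-, 4.04 in neonatal CD11c+, 0.68 for the CD11c- and 2.79 for the CD11c+ subset of EAE, where the median of all genes was between -0.0251 and -0.0053. Marco entered these medians through the libraries in which it was high, and for the other 5 genes they were 1.20, 3.40, 1.03 and 3.17 in the same order. These 4 comparisons share the adult libraries.

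Between subsets, 3 genes rose and 0 fell in neonatal CD11c+ over CD11c- microglia (5.44% and 2.31% of all genes), and 2 rose and 0 fell in EAE (1.66% and 2.71%). Without libraries 1, 16 and 17, the EAE count was 4. The calls over all genes also grew in that fit, from 217 higher and 354 lower of 13060 genes to 640 and 769 of 12899. Between conditions, 2 genes were higher in neonatal and 3 in EAE CD11c- microglia, where 10.1% of all genes were higher and 13.4% lower in neonates. In CD11c+ microglia 2 were higher in neonates (Colec12 and Scarb1) and 2 in EAE (Cd36 and Cxcl16), where 12% and 12.6% of all genes were higher and lower in neonates. The neonatal CD11c- against adult count of 4 was 2 without adult library 21 or 23. Over all genes the calls there fell from 1727 higher and 1574 lower to 1301 and 1185 or to 1265 and 1190.

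Whether the subset difference itself differed between neonates and EAE was tested as an interaction, the neonatal log2 difference minus that in EAE. In edgeR's quasi-likelihood test 0 of the 6 genes passed, where 1.54% of all genes did, and 3 had an unadjusted p under 0.05. Cd36 had the highest value, 2.30 ± 0.51 (adjusted p = 0.015), and passed in the DESeq2 Wald test (adjusted p = 0.00044), with no filter on low counts (2.5e-05) and without library 15 or 3 (0.0083 and 0.0091). Msr1 had 1.34 ± 0.38 (adjusted p = 0.054) and passed with no filter on low counts (0.0042), and Cxcl16 had -0.85 ± 0.25 (0.063) and passed without library 16 (-1.06, adjusted p = 0.005) and without libraries 1, 16 and 17 (-0.95, 0.0037). For Colec12 (0.95 ± 0.58, adjusted p = 0.37) and Scarb1 (0.33 ± 0.24, 0.46) a difference between the conditions was not detectable.

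To set the genes beside each other, CPM was divided by exonic length in kilobases. The sum of the 6 genes was 23.0 ± 1.06 CPM per kb (SD, n = 3) in adult and 22.3 ± 1.46 (n = 4) in neonatal CD11c- microglia, and these ranges overlapped. It was 67.0 ± 14.5 (n = 4) in neonatal CD11c+, 76.0 ± 18.4 (n = 3) for the CD11c- and 179 ± 40.0 (n = 3) for the CD11c+ subset of EAE. The EAE CD11c+ libraries, at 145 to 223 CPM per kb, were above all others, while neonatal CD11c+ (53.0 to 85.2) and EAE CD11c- libraries (62.3 to 97.0) overlapped.

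The gene that led this sum differed by group. In adult microglia Cxcl16 made up 64.9% of it and Scarb1 28.5%, and in neonatal CD11c- microglia Scarb1 made up 60.5% and Cxcl16 21.6%. In neonatal CD11c+ microglia Cd36 led with 38.4%, followed by Scarb1 with 26.9% and Colec12 with 13.8%, whereas the share of Colec12 elsewhere was at most 1.96%. In EAE the CD11c- subset had 41.5% from Cd36 and 40.1% from Cxcl16, and the CD11c+ subset 44.1% and 44.7%, with per-length levels of 78.9 ± 33.8 and 80.1 ± 6.38 CPM per kb that overlapped. Msr1 stayed between 2.57% and 9.38% and Marco at or under 1.11% in the 5 groups.

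**Figure D3:**
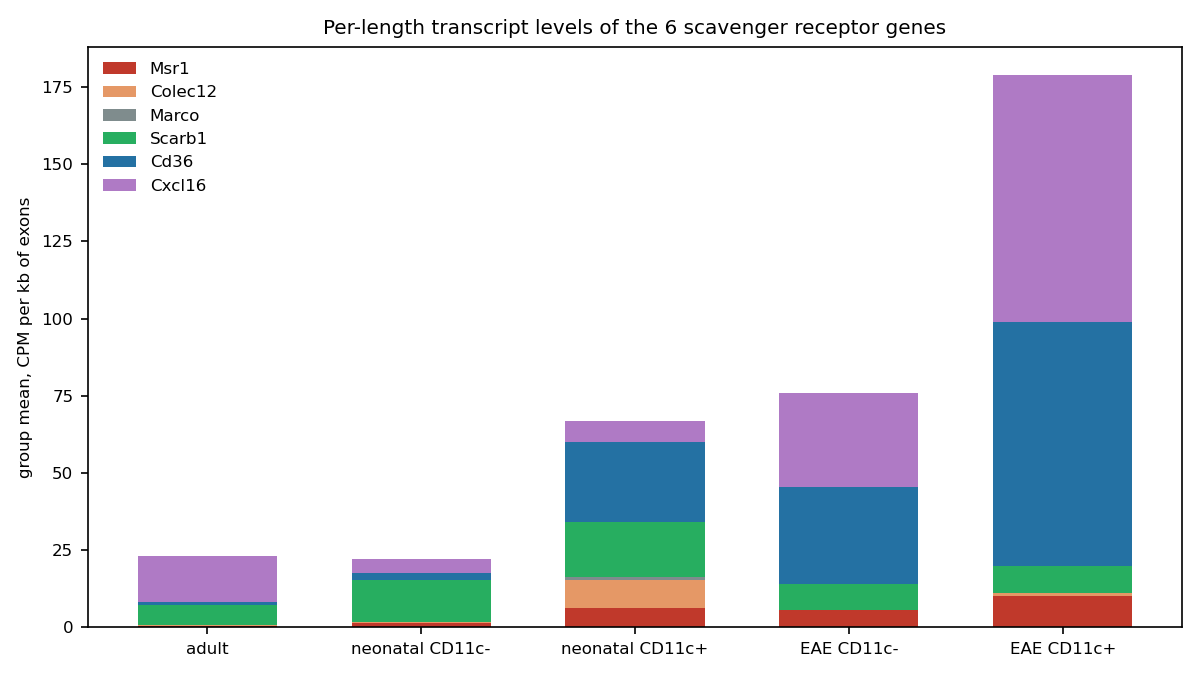
Group means of CPM per kb of exons for the 6 genes, stacked, so that the height of a bar is their sum in that group. The sum is near 23 in adult and neonatal CD11c- microglia and 179 in EAE CD11c+ microglia, where Cd36 and Cxcl16 take most of it.

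Msr1 and Cd36 had the most similar levels of the 15 pairs of members, with a Pearson correlation of log2 CPM of 0.981 over the 17 libraries. Colec12 correlated with Marco at 0.752 and with Scarb1 at 0.714, and Scarb1 with Cxcl16 at -0.644. These values describe libraries that fall into 5 groups and carry no test.
Among 9570 other genes with at least 10 CPM in a group, those most like Cd36 were Pla2g7 (0.987), which encodes a phospholipase that cleaves oxidized phospholipids, Serp1 (0.984) and Msr1. Cd36 was the gene most like Msr1, and Pla2g7 (0.966) was also among the 3 most like it. Pla2g7 had 3.61 and 4.74 CPM in adult and neonatal CD11c- microglia and 32.2 CPM in neonatal CD11c+ microglia, with 29.5 (CD11c-) and 60.3 CPM (CD11c+) in EAE.
The genes most like Colec12 were Aplp2 (0.972), Gpnmb (0.970), a glycoprotein of phagocytic macrophages, and Anxa5 (0.969), which binds phosphatidylserine. Gpnmb had 373 ± 67.9 CPM in neonatal CD11c+ (n = 4), 49.2 ± 23.3 in EAE CD11c+ (n = 3) and at most 8.19 CPM in any library of the other 3 groups. Scarb1 was followed most closely by Npl (0.991), which encodes an enzyme of sialic acid breakdown, Atp6ap2 (0.974) and Fcgrt (0.974). Cxcl16 was followed by H2-Aa (0.978), a chain of the major histocompatibility complex class II, AW112010 (0.977) and Spock1 (0.974). H2-Aa averaged 16.3 ± 6.15 CPM in adult microglia (n = 3), reached at most 2.71 CPM in a neonatal library, and averaged 266 ± 27.9 CPM (CD11c-) and 707 ± 50.2 CPM (CD11c+) in EAE (n = 3 per subset). The closest to Marco, Rraga (0.853), Nrap (0.848) and Blvrb (0.826), rest on libraries with few or 0 Marco counts.

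Another 15 scavenger receptor genes gave a second set to read beside the 6, and 11 of them were tested; Scara3, Scara5, Megf10 and Stab2 had at most 9 counts in any group. In neonatal CD11c+ microglia 6 of the 11 rose over adult microglia and 1 fell (18.0% and 15.3% of all genes tested). In neonatal CD11c- microglia 3 rose and 1 fell (13.2% and 12.1%). In EAE CD11c- microglia 2 rose and 1 fell (11.0% and 4.72%), and in EAE CD11c+ microglia 3 rose and 1 fell (15.1% and 11.1%). Between subsets 4 rose and 0 fell in neonatal CD11c+ microglia (5.44% and 2.31%). In EAE 0 passed in edgeR's test, with 1 at an unadjusted p under 0.05. There 1.66% of all genes rose and 2.71% fell, so that 0 of 11 does not set these receptors apart.
Stab1, an endocytic receptor for modified lipoprotein and extracellular matrix fragments, stood at 1501 ± 18.8 CPM in adult microglia (n = 3). Neonates had 1671 ± 413 CPM in the CD11c- and 3875 ± 608 CPM in the CD11c+ subset (n = 4 per subset), and mice with EAE had 807 ± 112 and 584 ± 103 CPM in the respective subsets (n = 3 per subset). It was higher in neonatal than EAE CD11c+ microglia by 2.73 ± 0.20 (adjusted p = 6.9e-09) and lower in EAE CD11c+ than in adult microglia (-1.36 ± 0.20, 3.2e-05), a fall in the group where Cd36 and Cxcl16 were highest. Cd163, the receptor for hemoglobin bound to haptoglobin, had 155 ± 79.3 CPM in neonatal CD11c+ microglia (n = 4) and group means of 6.19 to 14.0 CPM elsewhere. It was higher in neonatal than EAE CD11c+ microglia by 4.49 ± 0.47 (adjusted p = 5.5e-07).
Cd44, a hyaluronan receptor, rose in EAE CD11c- and CD11c+ microglia by 3.15 ± 0.28 and 2.89 ± 0.28 over adult (adjusted p = 1.4e-07 and 1.9e-07), from 8.75 CPM to 77.9 and 64.8 CPM. Scarf2 fell in neonatal CD11c- and CD11c+ microglia by log2 fold changes of -1.12 ± 0.18 and -1.62 ± 0.18 (adjusted p = 7.0e-05 and 7.9e-07), from 28.7 CPM to 13.1 and 9.35 CPM.

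**Figure D4:**
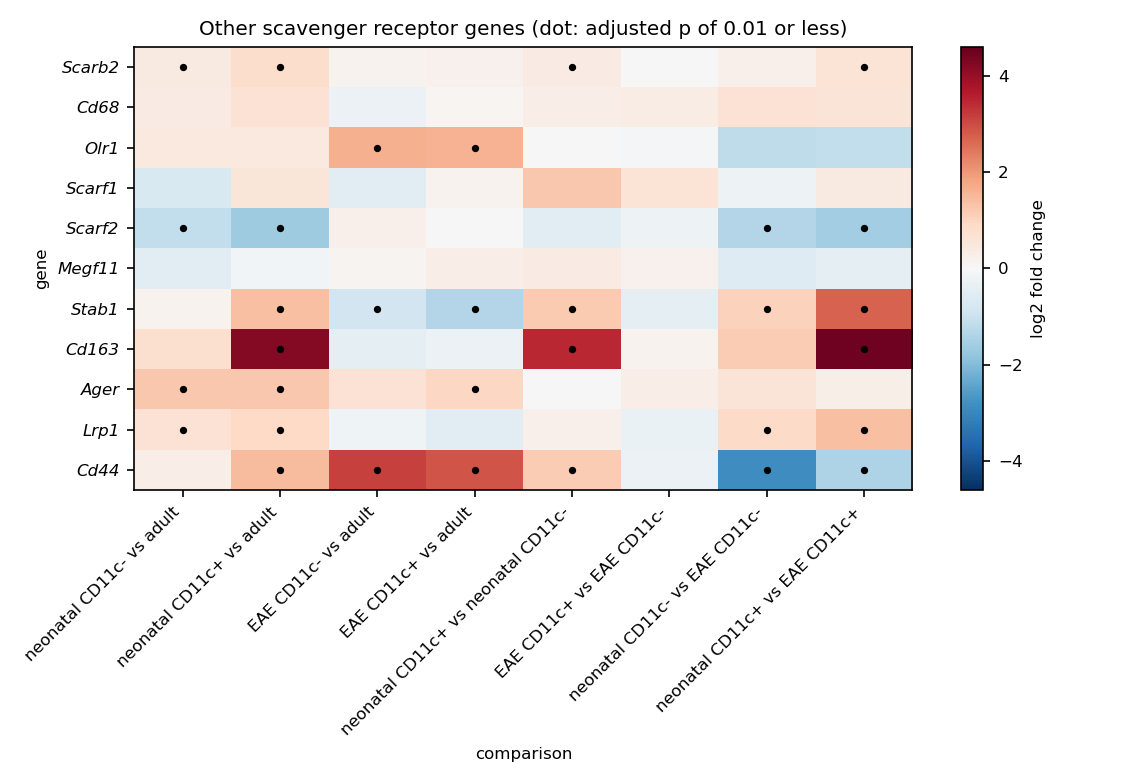
Log2 fold changes (color) of the 11 tested other scavenger receptor genes in 8 comparisons, with a dot for an adjusted p of 0.01 or less. Cd163 and Stab1 are higher in neonatal CD11c+ microglia, Cd44 is higher in EAE, and no gene carries a dot between the EAE subsets, where 1.66% of all genes tested rose and 2.71% fell.

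Genes that act with CD36 and SR-B1 were followed as a list of 12, of which 10 were tested, since Pdzk1 (an adaptor of SR-B1) and Pparg had few counts. From adult, 4 rose in neonatal CD11c- and the 4 in neonatal CD11c+ microglia were the same, Lpl, Abca1, Abcg1 and Fyn. Of all genes tested, 13.2% and 18.0% rose in these comparisons. In EAE CD11c- microglia Tlr2 rose and Lpl fell (11.0% and 4.72% of all genes), and in EAE CD11c+ microglia Lpl and Tlr2 rose (15.1%).
Lpl, the lipase that releases fatty acids from lipoproteins, stood at 77.9 ± 14.7 CPM in adult microglia (n = 3). In neonates the CD11c- subset had 731 ± 84.2 and the CD11c+ subset 1715 ± 274 CPM (n = 4 per subset), and in EAE they had 44.0 ± 1.94 and 157 ± 31.4 CPM (n = 3 per subset). Its level was higher in the CD11c+ subset by 1.23 ± 0.15 in neonates (adjusted p = 1.9e-05) and 1.84 ± 0.18 in EAE (3.6e-06). Unlike Cd36, it was higher in neonatal than EAE microglia, by 4.05 ± 0.19 in CD11c- (adjusted p = 2.1e-11) and 3.45 ± 0.18 in CD11c+ cells (7.0e-11).
Abcg1, a cholesterol exporter, rose in neonatal CD11c+ over adult microglia by 1.27 ± 0.10 (adjusted p = 2.2e-08), and Tlr2, a signaling partner of CD36, rose in EAE CD11c+ over adult microglia by 1.48 ± 0.14 (1.1e-07). Fyn, a kinase that signals from CD36, was higher in neonatal than EAE CD11c- microglia by 2.22 ± 0.13 (adjusted p = 4.2e-10). Of the genes that act with CXCL16, its receptor Cxcr6 had group means of 0.583 to 1.18 CPM, and the sheddases Adam10 and Adam17 had 498 to 658 and 358 to 441 CPM. None of the 3 passed in any of the 9 comparisons of edgeR's test, and at most 2 had an unadjusted p under 0.05 in a comparison. Since at most 18.0% of all genes tested passed in a given direction, 0 of 3 does not set these genes apart.

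Markers of other cells moved with some of these results. Markers of border macrophages (Mrc1, F13a1, Lyve1, Pf4, Cbr2, Ms4a7, Siglec1 and Cd163) gave a summed level of 56.7 to 132 CPM in adult libraries. In neonates the sum was 922 to 1340 CPM for the CD11c- and 1510 to 3527 CPM for the CD11c+ subset. Of this, Mrc1 alone averaged 969 CPM in the CD11c- and 1334 CPM in the CD11c+ subset. Over adult microglia 3 of the 8 (Mrc1, Lyve1 and Pf4) rose in neonatal CD11c- microglia, where 13.2% of all genes tested rose. In EAE the sum was 111 to 138 CPM for the CD11c- and 147 to 178 CPM for the CD11c+ subset. The same EAE libraries held 79.4 to 412 CPM of Cd36, 26.1 to 82.6 of Msr1 and 79.6 to 255 of Cxcl16. They held 48.3 to 87.5 CPM of Scarb1, 0.652 to 13.1 of Colec12 and 0 to 0.278 of Marco. Of the 8 markers, Siglec1 rose over adult in EAE CD11c- microglia, where 11.0% of all genes tested rose. In EAE CD11c+ microglia Siglec1 and Ms4a7 rose over adult (15.1% of all genes). All 8 rose in neonatal CD11c+ over adult and 7 over neonatal CD11c- microglia, where 18.0% and 5.44% of all genes tested rose. Between the EAE subsets 0 passed in edgeR's test, with 2 at an unadjusted p under 0.05, where 1.66% of all genes rose and 2.71% fell. None of the 8 was at 0 in a whole group. Mrc1 and Cd163 are receptors with an uptake function themselves, and Cd163 is also among the 15 receptors above.
Over the neonatal CD11c+ libraries 13, 14, 15 and 16 the marker sum was 3527, 2572, 1645 and 1510 CPM, with Cd36 at 140, 107, 53.4 and 68.8 CPM and Colec12 at 103, 92.6, 71.4 and 54.3 CPM. Msr1 was at 55.2, 46.5, 28.85 and 28.83 CPM in the same libraries. Libraries 13 and 14 were thus above libraries 15 and 16 in the markers, Cd36, Colec12 and Msr1. Colec12 and Msr1 ranked these libraries in the order of the marker sum, with Msr1 nearly equal in libraries 15 and 16. Cd36, Scarb1, Cxcl16 and Marco did not, and library 15 had more of the markers and less Cd36 than library 16. In these bulk libraries fewer cells of a type and less RNA per cell cannot be told apart, and the part of these cells in the neonatal CD11c+ results was not tested.

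**Figure D5:**
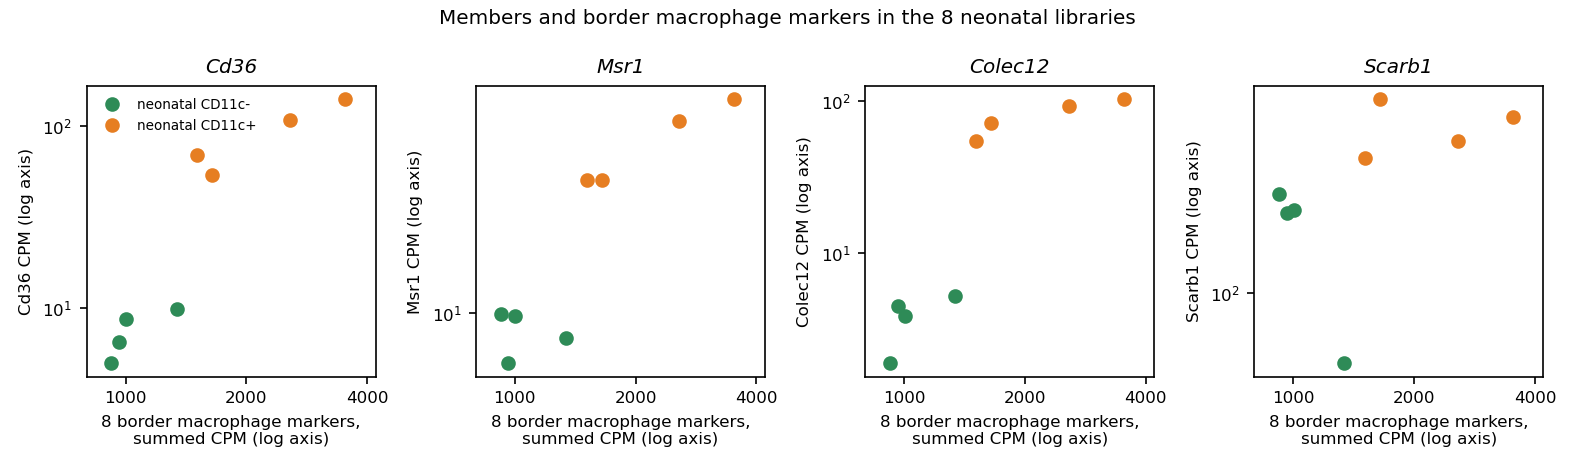
CPM of Cd36, Msr1, Colec12 and Scarb1 (log axis) against the summed CPM of 8 border macrophage markers (log axis) in the 8 neonatal libraries, 1 point per library. The 4 CD11c+ libraries lie between 1510 and 3527 on the marker axis, above the CD11c- libraries at 922 to 1340. Mrc1 alone averages 969 CPM in the CD11c- and 1334 CPM in the CD11c+ libraries.

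Markers of monocytes (Ly6c2, Ccr2, Plac8, Chil3, Vcan, Fn1 and Ms4a4c) gave 78.1 to 149 CPM in adult libraries, 19.9 to 104 (CD11c-) and 29.3 to 49.5 CPM (CD11c+) in neonates, and 998 to 1160 (CD11c-) and 1054 to 1603 CPM (CD11c+) in EAE. Against adult microglia all 7 rose in EAE CD11c- microglia (11.0% of all genes tested), and 5 rose and Chil3 fell in EAE CD11c+ microglia (15.1% and 11.1%). The sums in EAE rest on different genes by subset. Fn1 averaged 436 CPM in the CD11c- and 1123 CPM in the CD11c+ subset, and Chil3 492 and 14.0 CPM. Markers of neutrophils (S100a8, S100a9, Ngp, Camp, Ltf, Lcn2, Retnlg, Elane and Mmp8) gave 6778 to 12980 (CD11c-) and 42.2 to 71.7 CPM (CD11c+) in EAE, 910 to 1856 CPM in adult libraries, and 301 to 1698 (CD11c-) and 9.66 to 11.9 CPM (CD11c+) in neonates. In both lists the top of the neonatal CD11c- range was library 19, at 1698 CPM of neutrophil and 104 CPM of monocyte markers. The other libraries of that group had 301 to 401 CPM and 19.9 to 29.3 CPM. Neither list had a gene at 0 in a whole group. Cd36, Msr1 and Cxcl16 rose in both EAE subsets. Monocyte marker sums were above the adult ones in both subsets, and neutrophil marker sums were above them in CD11c- and below them in CD11c+ libraries. The part of monocytes and neutrophils in these results was not tested.
Markers of dendritic cells summed to 7.74 to 20.1 CPM over the 17 libraries, those of B and T cells to 0 to 3.01 CPM and those of fibroblasts to 0.525 to 4.99 CPM. Endothelial markers summed to 37.0 to 80.6 CPM, neural ones to 29.0 to 97.9 and those of red cells and platelets to 5.78 to 58.2 CPM. These ranges pool groups that differed. Of 4 tested neural markers, 3 rose and 0 fell in neonatal CD11c+ over adult microglia, where 18.0% of all genes rose. The same counts held over neonatal CD11c- microglia (5.44%). B and T cell markers summed to 1.95 to 3.01 CPM in EAE CD11c+ and at most 0.319 CPM in neonatal libraries. The part of these cells in the results was not tested.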

How the data were processed

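Counts of reads per gene were analysed in 17 libraries of sorted mouse microglia. The authors aligned single reads to GRCm38 with STAR (2.3.11 in the submitters' processing notes), counted them per gene with HTSeq 0.5.4 and deposited raw counts, without normalization; the notes also name edgeR 3.12.0. The annotation release and the strand setting are not given in the sources used here. Gene IDs were joined to symbols (40254 of 41388) and to exons of GENCODE M21. Groups were taken from the labels, and the library number serves as replicate name.

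The test covered the 13060 genes that reached 1 CPM in 3 or more libraries. With TMM scaling, edgeR 4.0.16 (on R 4.3.3 and limma 3.58.1) was fitted to the deposited counts in a joint model of the 5 groups. Comparisons used the quasi-likelihood test, with p-values adjusted over the tested genes by Benjamini-Hochberg, and a gene passed at an adjusted p of 0.01 or less. The SE is the log2 fold change over the square root of F. CPM levels are TMM-scaled, and a prior count of 2 entered log2 CPM for correlations. The script was tested on simulated data.

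Members, lists and tests were chosen with earlier results of these data known. Named were the 6 members, up to 4 genes of each further list with the smallest adjusted p in any comparison, and the 3 genes most correlated with each member. A few genes of the marker lists and of the correlated genes are not reported here, and summed marker levels leave them out. Zmynd15, Abca1 and the untested receptors, and the levels of Pla2g7, Gpnmb and H2-Aa, were added after their values were seen. Intervals and floors cover counting error only. The alternatives were DESeq2 1.42.0 size factors, its Wald test, other filters, only the groups compared, and libraries left out.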

Additional observations from a re-analysis of the deposited data

Results flagged for a closer look

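The results below were picked out because a library lay far from the others of its group or because a difference between subsets differed between conditions. In the neonatal CD11c- group, Scarb1 in library 17 (83.3 CPM) lay below the other libraries (123 to 129 CPM), and its gap to the nearest of them was 0.867 of the range of the group. In the neonatal CD11c+ group, Cxcl16 in library 16 (30.4 CPM) lay above the other libraries (17.6 to 19.0 CPM), with a gap of 0.889 of the range. Both gaps are above the 95% critical value of Dixon's ratio for 4 libraries, which chance passes in about 1 of 20 groups, and 12 groups were examined. Both libraries are among the 3 that stood apart over all genes.

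The CD11c+ over CD11c- difference was larger in neonates than in EAE for Stab1, by 1.68 ± 0.26 on the log2 scale (SE, adjusted p = 0.0012 in edgeR's quasi-likelihood test). For Cd163 it was larger by 3.33 ± 0.64 (adjusted p = 0.0059), and border macrophage markers, of which Cd163 is a member, were also higher in neonatal CD11c+ libraries; their part was not tested. For Fyn, the difference in neonates minus that in EAE was -1.01 ± 0.18 (adjusted p = 0.0027).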

How the results depend on the processing

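In 23 alternatives, 17 of them leaving out a library, 1150 of 1200 values of single members kept their direction and their side of the threshold; 16 lost the call, 26 gained it and 8, none of which had passed, turned direction. Of 207 counts of members passing, 198 stayed within 1.5 times the main count. The count for neonatal CD11c- against adult (4) ranged from 2 to 4 when a library was left out, and the 2 came without adult library 21 or 23. The count between the EAE subsets (2) was 4 without libraries 1, 16 and 17, where 640 of all genes were higher and 769 lower, against 217 and 354 in the main fit. The interaction count (0) was 2 with no filter on low counts, 1 without libraries 1, 16 and 17, 1 with the DESeq2 Wald test, and 0 to 1 when a library was left out, the 1 coming without library 15, 16 or 3. Over all genes the interaction calls were 187 higher and 14 lower in the main fit. They were 288 and 29 with no filter, 361 and 77 without libraries 1, 16 and 17, and 390 and 86 with the DESeq2 Wald test. Without library 15, 16 or 3 they were 161 and 9, 183 and 13, and 115 and 10. With a library left out, direction turned for Colec12 in EAE CD11c- against adult (-0.50 without library 23 to 0.077 without library 22) and for Marco in the same comparison (-1.77 without library 4 to 1.70 without library 22, with 0.43 and 0.28 without library 5 or 6). It also turned for Marco in EAE CD11c+ against adult (-1.80 without library 3 to 2.78 without library 22) and between the EAE subsets (-1.71 without library 3 to 2.78 without library 4), and for Scarb1 between the EAE subsets (-0.058 without library 2, -0.040 without library 3, up to 0.31 without library 1). The cause of these changes was not tested. The median of all genes moved by at most 0.0523 under another filter or scaling. Marco is limited by depth, with at most 16 counts in a library. No paired analysis was possible because the library numbers in the labels are unique and link no libraries of different groups. The subset comparisons and the interaction therefore treat libraries as independent. Any sort shared by libraries of both subsets was not taken into account in their p-values.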
